A study of Mus musculus with 16 samples.

Results

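The genes described here are 10 regulators and markers of epithelial to mesenchymal transition, taken by symbol from the 49315 Ensembl genes of the count table: the transcription factors Snai1, Snai2, Twist1, Zeb1 and Zeb2, the intermediate filament gene Vim, the matrix gene Fn1, the cadherins Cdh1 and Cdh2, and the splicing factor Esrp1. All 10 were among the 15993 genes tested. They were measured by RNA sequencing of MTECs, primary cultures of mouse tracheal epithelium, in 16 libraries of 8 groups with 2 biological replicates each. The groups were female or male, wild-type (WT) or LMAN1 knockout (KO), and left naive or given house dust mite extract (HDM) at 20 ug/ml overnight. LMAN1 is a cargo receptor that carries glycoproteins out of the endoplasmic reticulum. The KO allele was bred as a heterozygote on C57BL/6J, WT and KO mice were littermates, tracheas were pooled to make cultures, and the age of the donors was not given in the sources used here. The inserts were coated with matrix laid down by 3T3 cells, a mouse fibroblast line, before the epithelial cells were grown at an air-liquid interface.

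In epithelial to mesenchymal transition, cells that are joined by E-cadherin (Cdh1) loosen their contacts and take on a filament, matrix and cadherin repertoire typical of fibroblasts, in which N-cadherin (Cdh2), vimentin (Vim) and fibronectin (Fn1) are prominent. Snail (Snai1), Slug (Snai2), Zeb1 and Zeb2 are zinc finger repressors and Twist1 is a basic helix-loop-helix factor, and all of them can repress Cdh1. Esrp1 is an epithelial RNA-binding protein that keeps splicing in its epithelial form and is itself a target of Zeb1. Several of these genes also have normal roles in airway epithelium, since basal cells, its stem cells, express Snai2.

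Total counts per library ran from 21860698 to 43442188. Values are CPM, counts relative to a library size corrected by edgeR's trimmed mean of M-values (TMM), and a gene was called where edgeR's quasi-likelihood test gave a Benjamini-Hochberg adjusted p under 0.05 over all tested genes. Lman1 itself was at 101 to 144 CPM in the 8 WT libraries and at 12.8 to 78.1 CPM in the 8 libraries labelled KO, of which 3 were under 20 CPM and 5 over 60 CPM. All 4 KO libraries treated with HDM were among those 5, so genotype comparisons are given below by label only. Which exons the KO allele removes was not given in the sources used here. Markers of airway epithelium, taken as sums, were present in every library: the 7 basal markers summed to between 2141 and 12921 CPM and the 5 club cell markers to between 3799 and 20859 CPM. Most of the club cell sum was Cyp2f2, at 3754 to 18918 CPM. The club cell marker Scgb1a1 reached 3.75 CPM at most and was at 0.125 and 0.0474 CPM in the female WT HDM libraries. The 10 fibroblast markers varied most between libraries, from 3.24 to 624 CPM, and their highest sums were in the second female WT naive and the second female WT HDM library.

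Members differed widely in level. Per kilobase of exon, averaged over the 16 libraries, Cdh1 was highest at 317 ± 25.9 CPM per kilobase (SD, n = 16), followed by Fn1 at 102 ± 133, Esrp1 at 33.7 ± 4.55, Snai2 at 12.5 ± 2.58 and Vim at 7.83 ± 9.22. Twist1 at 0.695, Cdh2 at 0.657, Snai1 at 0.222, Zeb1 at 0.173 and Zeb2 at 0.149 CPM per kilobase made up the low end. In the female WT HDM group the mean of Fn1, at 422 ± 157 CPM per kilobase (SD, n = 2), was above that of Cdh1 at 364. That difference was smaller than the spread of Fn1. Per kilobase of exon, only the second library had Fn1 above Cdh1, while in the first Cdh1 was still the higher. The median of Fn1 over all libraries was 53.2 on that scale. Taking the longest transcript as length (8315 bases for Fn1 and 4430 for Cdh1), Fn1 was above Cdh1 in both female WT HDM libraries. Snai2 and Vim did not differ beyond their spread, nor did neighbours among the 5 low genes, and with the longest transcript as length Vim (12.7) passed Snai2 (12.5) and Cdh2 (1.09) passed Twist1 (0.695). Snai1 was the sparsest member, with 3 counts or fewer in 7 of 16 libraries and 43 at most.

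Promoters are shown for Vim and Twist1, which rose together in female WT cultures under HDM as described below. The RefSeq promoter table for GRCm38.p6 held 4 of the 10 members, Snai1, Twist1, Zeb2 and Vim, each as 300 bases around a start. The Vim window is chr2:13574061-13574360 and the Twist1 window is chr12:33957421-33957720, both on the plus strand, and capitals mark matches on either strand to CCAAT and TATAA, the letters of the CCAAT and TATA boxes.
Vim: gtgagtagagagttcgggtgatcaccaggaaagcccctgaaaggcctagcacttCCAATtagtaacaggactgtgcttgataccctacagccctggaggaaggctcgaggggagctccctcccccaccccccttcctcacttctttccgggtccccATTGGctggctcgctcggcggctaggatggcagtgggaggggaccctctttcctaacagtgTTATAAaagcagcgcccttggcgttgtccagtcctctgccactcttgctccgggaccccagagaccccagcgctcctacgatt
Twist1: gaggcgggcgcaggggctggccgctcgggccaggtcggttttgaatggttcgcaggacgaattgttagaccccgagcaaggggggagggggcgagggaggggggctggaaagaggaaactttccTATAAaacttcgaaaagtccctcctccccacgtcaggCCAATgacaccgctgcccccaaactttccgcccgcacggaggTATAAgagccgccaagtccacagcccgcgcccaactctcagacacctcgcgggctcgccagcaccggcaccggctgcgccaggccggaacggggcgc

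The Vim window, 59.3% G and C, held 2 CCAAT matches and 2 overlapping TATAA matches that face each other in TTATAA. The Twist1 window, 66.0% G and C, held 1 CCAAT match and 2 TATAA matches. Among all 32851 promoters of that length, 37.4% held CCAAT and 24.9% held TATAA. Neither window held the E-box letters CANNTG (72.3% of promoters), the E2-box letters CAGGTG that lie within that pattern (20.2%), the AP-1 letters TGANTCA (7.81%) or the TEAD letters GGAATG (14.7%). The Snai1 window at chr2:167537945-167538244 held 1 E2-box match, and 1 of 4 Zeb2 windows, chr2:45110228-45110527 on the minus strand, held 2 AP-1 matches and 1 TEAD match. These letters are a description of the windows and do not show that a factor binds there.

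In female WT cultures, HDM was accompanied by higher mesenchymal markers without lower Cdh1. Cdh2, Fn1, Twist1, Vim, Zeb1 and Cdh1 rose, Snai2 and Esrp1 fell, and Snai1 and Zeb2 were not called, so that 8 of 10 members were called. Of all genes tested, 43.1% were called in this comparison, 20.6% higher and 22.4% lower, against 6 members higher and 2 lower. The median log2 change was 1.45 over the members and -0.02 over all genes tested. Without the first naive library 4 members were called, and without the second HDM library 5.

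**Figure D1:**
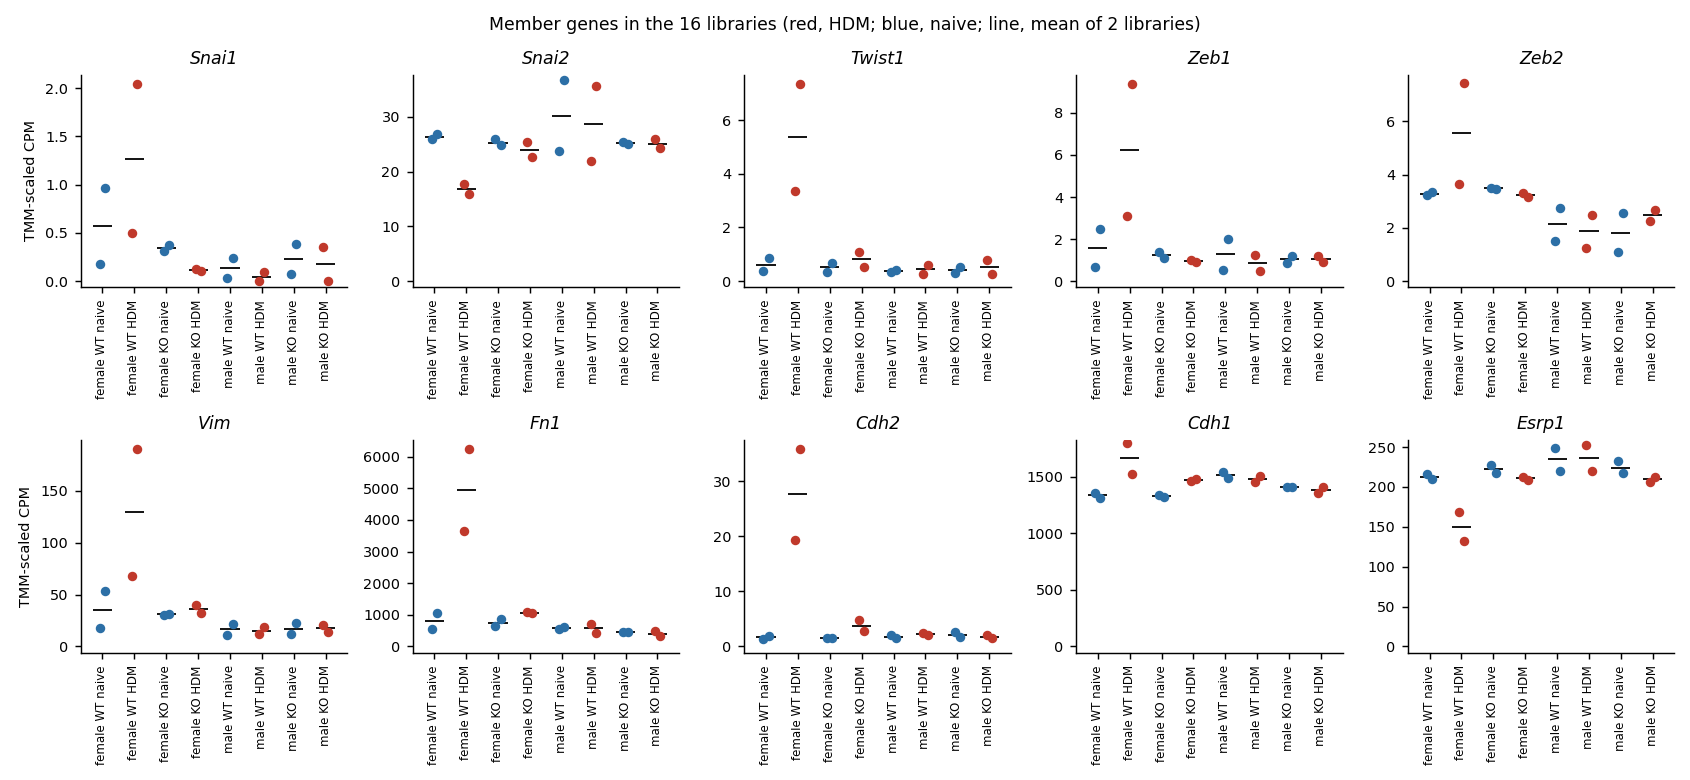
TMM-scaled CPM of each member (vertical axis, linear and including 0, a separate scale per panel) in the 16 libraries by group (horizontal axis); points are libraries, red for HDM and blue for naive, and lines are means of 2. The 2 female WT HDM libraries lie above the other 14 for Cdh2, Fn1, Twist1, Vim, Zeb1 and Zeb2 and below them for Snai2 and Esrp1, while Cdh1 stays between 1312 and 1802 CPM.

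Cdh2 (ENSMUSG00000024304) showed the largest change among the members. It was at 1.34 and 1.91 CPM in the 2 female WT naive libraries and at 19.4 and 35.8 CPM in the 2 female WT HDM libraries, or 1.63 ± 0.401 against 27.6 ± 11.5 CPM (mean ± SD, n = 2). The other 14 libraries lay between 1.34 and 4.72 CPM, well under both female WT HDM libraries. The log2 change was 4.06 ± 0.37 (SE), 16.7-fold, with an adjusted p of 9.91e-06 in edgeR's quasi-likelihood test. Read per kilobase within each library, Cdh2 stood at 0.0561% and 0.0826% of Cdh1 in female WT naive cultures and at 0.612% and 1.33% under HDM, so Cdh1 remained the far more abundant cadherin. With the other 14 libraries together, the share ran from 0.0561% to 0.183%.

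Fn1 (ENSMUSG00000026193, GRCm38 chromosome 1, 71585520 to 71653200, minus strand) encodes fibronectin, a matrix glycoprotein that integrins bind. It stood at 536 and 1045 CPM in the female WT naive and at 3634 and 6234 CPM in the female WT HDM libraries. Those 2 libraries exceeded every other library, of which the highest was at 1087 CPM. The log2 change was 2.64 ± 0.36 (SE), 6.24-fold, with an adjusted p of 0.000147 from edgeR.

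Twist1 (ENSMUSG00000035799, chromosome 12, 33957671 to 33959829, plus strand) was at 0.363 and 0.854 CPM in the naive and at 3.37 and 7.34 CPM in the HDM libraries of female WT cultures. The other 14 libraries reached 1.09 CPM at most. The log2 change was 3.08 ± 0.61 (SE) with an adjusted p of 0.00182 from edgeR. Among the 5 transcription factors it had the largest called change, although it remained a low gene.

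Vim (ENSMUSG00000026728, chromosome 2, 13573927 to 13582826, plus strand) was at 17.8 and 53.0 CPM in the naive and at 67.6 and 190 CPM in the HDM libraries. The groups did not overlap, but the gap between them, from 53.0 to 67.6 CPM, was smaller than the spread within each group. The log2 change was 1.85 ± 0.57 (SE) with an adjusted p of 0.0204 from edgeR. Without the second HDM library the change was 0.93 and no longer called, and without the first naive library it was 1.28 and not called, with adjusted p between 0.00661 and 0.256 over the 4 refits that each left out 1 library.

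Zeb1 (ENSMUSG00000024238) was at 0.69 and 2.49 CPM in the naive and at 3.08 and 9.38 CPM in the HDM libraries of female WT cultures. Its log2 change was 1.93 ± 0.70 (SE), and the edgeR adjusted p of 0.0435 lay close to the threshold. Without the second HDM library it was 0.93 and without the first naive library 1.31, neither called, with adjusted p from 0.019 to 0.4 over the 4 refits. Zeb2 (ENSMUSG00000026872, chromosome 2, 44983632 to 45117395, minus strand), its paralog, was at 3.23 and 3.33 CPM naive and at 3.66 and 7.44 CPM under HDM, a log2 difference of 0.75 ± 0.43 (SE) that was not called (adjusted p 0.18, edgeR). Zeb2 shares 653 exon bases with its antisense gene Zeb2os, and the strand setting of the counting is not given in the sources used here. Shared exon bases with genes on the opposite strand made up 2.5% of Fn1, 2.0% of Esrp1 and 1.9% of Zeb1.

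Snai1 (ENSMUSG00000042821, chromosome 2, 167538195 to 167542814, plus strand) gave 5 and 43 counts in the female WT naive and 12 and 43 counts in the female WT HDM libraries. The naive and HDM values overlapped, and the log2 difference of 1.05 ± 1.0 (SE) was not called. Snai2 (ENSMUSG00000022676, chromosome 16, 14705852 to 14709385, plus strand), the most abundant of the 5 factors, was at 25.9 and 26.8 CPM naive and at 17.7 and 15.9 CPM under HDM. Its fall of 0.65 ± 0.22 (SE) on the log2 scale had an adjusted p of 0.0303 from edgeR, and the 2 HDM libraries were the lowest of all 16. Leaving out any of the 4 libraries ended that call (adjusted p 0.0716 to 0.16), while the log2 change stayed between -0.71 and -0.57.

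Cdh1 (ENSMUSG00000000303, chromosome 8, 106603351 to 106670246, plus strand) was at 1360 and 1312 CPM in the naive and at 1802 and 1524 CPM in the HDM libraries of female WT cultures. It therefore rose slightly, by 0.32 ± 0.09 (SE) on the log2 scale with an adjusted p of 0.0153 from edgeR, and its HDM values were not below any naive value. Leaving out either naive library or the first HDM library ended this call, with log2 changes of 0.20 to 0.44 over the 4 refits. Esrp1 (ENSMUSG00000040728, chromosome 4, 11331933 to 11386783, minus strand) was at 216 and 210 CPM naive and at 168 and 132 CPM under HDM. It fell by 0.51 ± 0.11 (SE) with an adjusted p of 0.00296, the lowest 2 values of the 16 libraries being those of the female WT HDM cultures.

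Non-overlap by itself says little here. The 2 female WT HDM libraries lay wholly above or wholly below the 2 naive ones for 9 of 10 members, and for 74.6% of all genes tested.

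In female cultures labelled KO, Cdh2 was the only member called between HDM and naive cultures, and it was higher under HDM. Cdh2 went from 1.48 and 1.46 CPM to 4.72 and 2.86 CPM, a log2 change of 1.36 ± 0.36 (SE) with an adjusted p of 0.0342 from edgeR. That is 1 of 10 members against 10.4% of all genes tested, and leaving out any of the 4 libraries ended the call (adjusted p 0.0583 to 0.191). Fn1 was at 642 and 860 CPM naive and at 1087 and 1055 CPM under HDM, a log2 difference of 0.51 ± 0.34 (SE) that was not called. Twist1 (0.342 and 0.681 against 1.09 and 0.537 CPM) overlapped between the groups. Vim was at 30.6 and 31.1 CPM naive and at 40.0 and 32.3 CPM under HDM, with an adjusted p of 0.844 from edgeR. Esrp1 (227 and 218 against 213 and 209 CPM) and Cdh1 (1340 and 1324 against 1464 and 1479 CPM) were not called either. Snai2 (25.9 and 24.8 against 25.4 and 22.7 CPM) overlapped between the groups. Zeb1 (1.37 and 1.12 against 1.01 and 0.931 CPM) and Zeb2 (3.5 and 3.47 against 3.31 and 3.15 CPM) were slightly lower under HDM and not called. Snai1 gave 11 and 12 counts naive and 3 and 3 counts under HDM (adjusted p 0.535, edgeR). The median log2 change over the members was 0.03.

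In male cultures none of the members was called under HDM. In male WT cultures, edgeR called 0 of 10 members and 0% of all genes tested, 0 members had an unadjusted p under 0.05, and DESeq2 also called 0. In male cultures labelled KO these numbers were again 0 of 10, 0%, 0 and 0. Cdh2 was at 2.05 and 1.55 CPM in male WT naive and at 2.39 and 2.13 CPM in male WT HDM libraries, a log2 difference of 0.33 ± 0.36 (SE). Fn1 was at 556 and 601 against 716 and 426 CPM in the same groups, which overlapped. Twist1 stayed between 0.275 and 0.785 CPM in the 8 male libraries, and Vim between 11.1 and 22.1 CPM. Snai2 was at 23.8 and 36.7 CPM in male WT naive and at 21.9 and 35.6 CPM in male WT HDM libraries, so its replicates differed more than the treatments. Zeb1 lay between 0.463 and 2.02 CPM and Zeb2 between 1.1 and 2.73 CPM over the male libraries, and both overlapped between naive and HDM cultures in WT and in KO. Snai1 gave 1 and 7 counts in male WT naive, 0 and 3 in male WT HDM, 2 and 14 in male KO naive and 10 and 0 in male KO HDM libraries, too few to order the groups. Esrp1 was at 206 to 253 CPM and Cdh1 at 1354 to 1539 CPM in these 8 libraries.

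**Figure D2:**
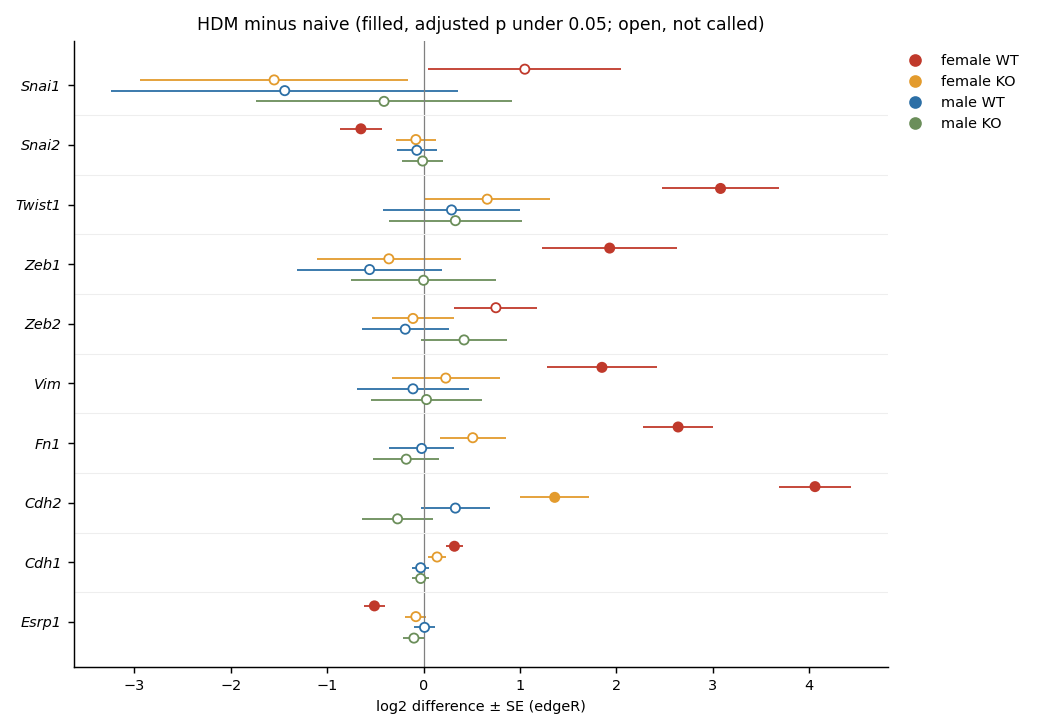
Log2 difference between HDM and naive cultures (horizontal axis, ± SE from edgeR) for the 10 members in female WT, female KO, male WT and male KO cultures; filled points are called at an adjusted p under 0.05. Of the filled points, 8 belong to female WT cultures, from 4.06 for Cdh2 to -0.65 for Snai2, and 1 to female KO cultures, Cdh2 at 1.36.

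The tests of the difference between responses bear on which of these contrasts can be told apart. The WT response was lower in males than in females for Cdh2 (log2 difference of responses -3.74 ± 0.51, adjusted p 0.000444), Fn1 (-2.66 ± 0.48, 0.00257) and Twist1 (-2.79 ± 0.93, 0.0492), all ± SE from edgeR. It was higher for Esrp1 (0.52 ± 0.15 SE, edgeR adjusted p 0.0293), whose log2 change was -0.51 in female and 0.01 in male WT cultures. These 4 of 10 members compare with 24.2% of all genes tested. Twist1 and Esrp1 each kept the call in 3 of the 8 refits that left out 1 library, and without the first female WT naive library 2 members were called. Vim (-1.96 ± 0.81, adjusted p 0.0985) and Zeb1 (-2.49 ± 1.02, 0.0996) were not called. The female response was weaker in cultures labelled KO than in WT for Cdh2 (-2.70 ± 0.50, adjusted p 0.00837) and Fn1 (-2.13 ± 0.48, 0.0192), 2 of 10 members against 11.2% of genes. With no filter on low counts 8 members were called in this comparison, and with the replicate block 5. The Fn1 value kept its call in 3 of 8 such refits, those without the second female WT naive, the first female WT HDM or the first female KO naive library, and was between -2.15 and -1.69 and not called in the others. For the KO response between the sexes, 0 of 10 members were called against 3.56% of genes (1 at an unadjusted p under 0.05 and 1 by DESeq2), with Cdh2 at -1.64 ± 0.51 and an adjusted p of 0.109. For the male response between genotypes, edgeR called 0 of 10 members and 0% of genes, with 0 at an unadjusted p under 0.05 and 0 by DESeq2. All these comparisons share groups with those above and are not independent of them.

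Within HDM-treated female cultures, 6 of 10 members differed between libraries labelled KO and WT, against 29.2% of all genes tested. Relative to WT, the KO libraries were lower for Cdh2 (log2 difference -2.86 ± 0.35, adjusted p 0.000259), Fn1 (-2.20 ± 0.35, 0.00116), Twist1 (-2.72 ± 0.61, 0.00697), Zeb1 (-2.68 ± 0.74, 0.02) and Vim (-1.83 ± 0.57, 0.0318), and higher for Esrp1 (0.50 ± 0.11, 0.00637), all ± SE from edgeR. Lman1 in these groups was at 66.6 and 78.1 CPM in the libraries labelled KO and at 117 and 101 CPM in WT, a log2 difference of -0.59 ± 0.44 (SE) that was not called. Snai1 gave 3 and 3 counts in the KO and 12 and 43 in the WT libraries (adjusted p 0.0651, edgeR). Without the second female WT HDM library, 2 members were called, and without the second female KO HDM library 3. Over the 4 refits that each left out 1 library, log2 differences were -3.27 to -2.36 for Cdh2 and -2.55 to -1.77 for Fn1. They were -3.31 to -2.06 for Twist1, -3.28 to -1.67 for Zeb1, -2.41 to -0.91 for Vim and 0.33 to 0.67 for Esrp1.

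Within HDM-treated WT cultures, male and female libraries differed in 9 of 10 members, all but Cdh1, against 41.6% of all genes tested. Males were lower for Cdh2 (log2 difference -3.60 ± 0.36, adjusted p 1.96e-05), Fn1 (-3.11 ± 0.36, 5.6e-05), Twist1 (-3.55 ± 0.64, 0.00102), Vim (-3.07 ± 0.60, 0.00177), Zeb1 (-2.85 ± 0.74, 0.00962) and Zeb2 (-1.57 ± 0.45, 0.015) and higher for Snai2 (0.77 ± 0.22, 0.0138) and Esrp1 (0.66 ± 0.11, 0.000596), all ± SE from edgeR. Snai1 was also called lower in males (adjusted p 0.0212, edgeR), on 0 and 3 counts in male and 12 and 43 counts in female libraries. Snai1, Snai2, Zeb1 and Zeb2 each kept the call in 2 of the 4 refits that left out 1 library, with the highest adjusted p at 0.178, 0.164, 0.111 and 0.172 in that order. All 4 lost it without the second female WT HDM library, Snai1 and Zeb2 also without the first male WT HDM library, and Snai2 (then 0.38) and Zeb1 without the second. The log2 difference of Zeb1 was -1.84 at its smallest. Scaled by total counts, the female to male ratio of Snai1 was 25.5, with an exact 95% interval of 8.29 to 128 that covers counting error only. In HDM-treated KO cultures, 2 of 10 members were called against 25.3% of genes, Cdh2 (-1.12 ± 0.36, adjusted p 0.0409) and Fn1 (-1.40 ± 0.34, 0.0122), both lower in males. Leaving out the second male KO HDM or the first female KO HDM library ended both of these calls, and leaving out the first male KO HDM library left 1.

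**Figure D3:**
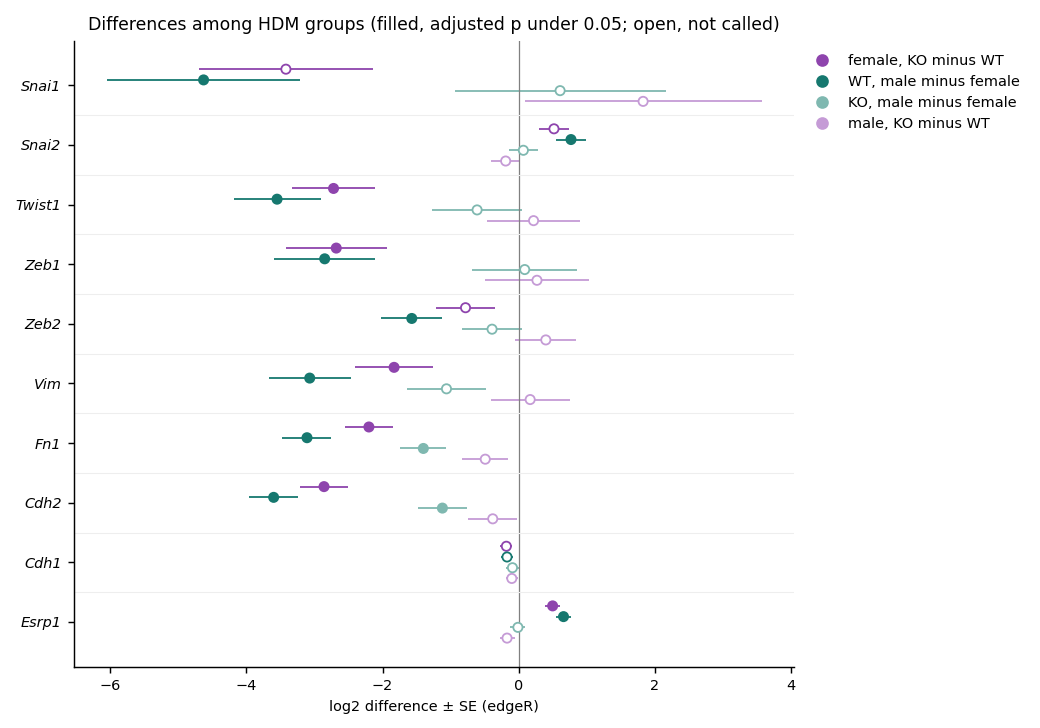
Log2 differences among HDM-treated groups (horizontal axis, ± SE from edgeR) for the 10 members: KO minus WT within females and within males, and male minus female within WT and within KO; filled points are called at an adjusted p under 0.05. Cdh2 and Fn1 are filled and below 0 in 3 of the 4 comparisons, and Cdh1 lies within 0.18 of 0 in all 4.

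The remaining comparisons gave no called member in the fit reported. Between libraries labelled KO and WT, edgeR called 0 of 10 members and 0% of genes in female naive cultures, 0 of 10 and 0% in male naive cultures, and 0 of 10 and 0% in male HDM cultures, with 0 members at an unadjusted p under 0.05 and 0 by DESeq2 in each. Between male and female naive cultures, edgeR called 0 of 10 members against 0.1% of genes in WT and 0 of 10 against 0.188% in KO, again with 0 at an unadjusted p under 0.05 and 0 by DESeq2. With no filter on low counts, 3 members were called between the sexes in WT naive cultures, 2 in KO naive cultures and 1 between genotypes in male HDM cultures. Before HDM, Cdh2 was at 1.34 to 2.59 CPM and Cdh1 at 1312 to 1539 CPM over the 8 naive libraries. With 2 libraries a group these counts limit what could be detected and do not show that the groups were alike.

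The other genes of the transition were read from 5 lists with 87 genes in all, none of them members, beside the 20.6% of all genes tested that rose and the 22.4% that fell in female WT cultures. In female WT cultures under HDM, the mesenchymal and matrix genes moved in 1 direction: 13 of 24 tested rose and 0 fell, with a median log2 change of 1.48. Axl, a receptor tyrosine kinase, went from 44.4 and 54.6 CPM to 179 and 209 CPM, a log2 change of 1.97 ± 0.12 (SE) with an adjusted p of 7.4e-07. Itgav, the integrin subunit alpha V, rose by 1.13 ± 0.08 and Mmp14, a membrane-bound matrix metalloproteinase, by 1.22 ± 0.10 on the log2 scale. Of the EMT-inducing factors, 7 of 14 tested rose and 3 fell, with a median of 0.84. Sox9 (64.2 and 87.3 against 251 and 236 CPM) and Sox4 (143 and 129 against 286 and 282 CPM) rose.

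The epithelial side of the transition was split in female WT cultures. Of 15 epithelial-program factors, 11 fell and 1 rose, with a median log2 change of -1.06. Elf5, an Ets factor of glandular and airway epithelium, went from 15.2 and 11.8 CPM to 0.583 and 0.521 CPM, Elf3 from 512 and 450 to 146 and 114 CPM, and Foxa1, a pioneer factor, from 301 and 265 to 132 and 132 CPM. Esrp2, the paralog of Esrp1, fell by 0.77 ± 0.09 (SE) with an adjusted p of 4.17e-05 from edgeR, and was named after its values were seen. In contrast, 7 of 12 adherens junction genes rose and 1 fell (median 0.39), among them P-cadherin, Cdh3 (72.7 and 92.9 against 295 and 207 CPM), Ctnnd1, the p120 catenin, and Vcl, vinculin. Of 20 epithelial surface genes, 8 rose and 5 fell (median 0.29). The simple keratin Krt18 went from 662 and 830 to 1815 and 2047 CPM, while Krt19 went from 3685 and 3528 to 1813 and 1399 CPM and the tight junction gene Tjp3 from 189 and 176 to 99.6 and 78.8 CPM.

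**Figure D4:**
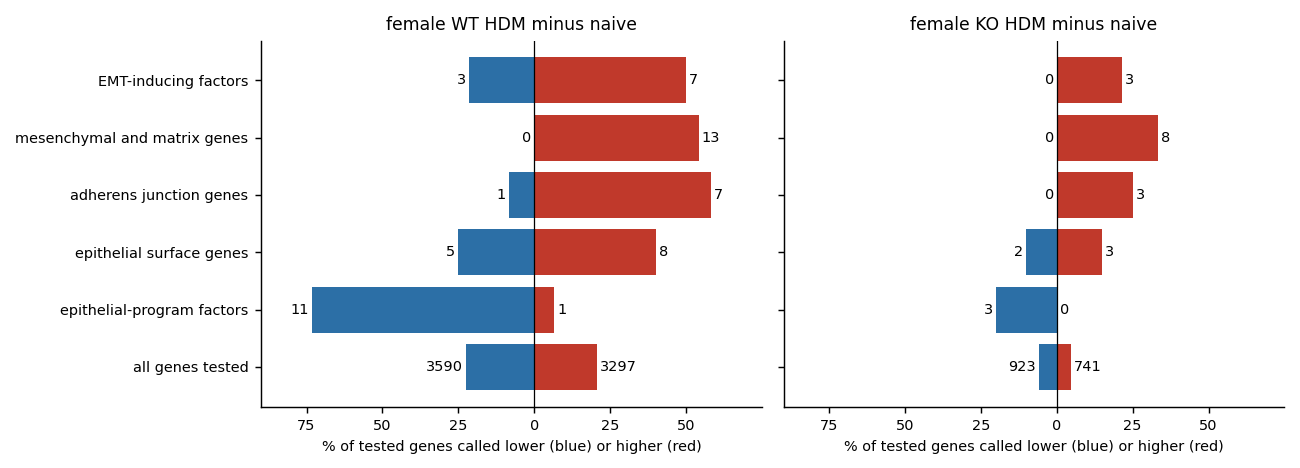
Share of the tested genes of each list called lower (blue, to the left) or higher (red, to the right) under HDM, in percent, for female WT and female KO cultures; the figures at the bars are numbers of genes. In female WT cultures 11 of 15 epithelial-program factors fell and 13 of 24 mesenchymal and matrix genes rose, and in female KO cultures these numbers were 3 and 8.

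In female cultures labelled KO the lists had fewer called genes than in WT, as did all genes tested (1664 against 6887, or 10.4% against 43.1%). Of 24 mesenchymal and matrix genes 8 rose and 0 fell, of 14 EMT-inducing factors 3 rose and 0 fell, of 15 epithelial-program factors 3 fell and 0 rose, of 12 adherens junction genes 3 rose and 0 fell, and of 20 epithelial surface genes 3 rose and 2 fell. Median log2 changes were 0.39, 0.24, -0.18, 0.26 and 0.16 in that order. Cdh3 rose from 71.2 and 98.2 CPM to 171 and 183 CPM and Sox9 from 50.1 and 61.6 to 145 and 179 CPM, whereas Elf5 fell from 13.3 and 9.32 to 2.06 and 1.72 CPM. In the edgeR test of the female response between genotypes, the 5 lists taken in that order had 8 lower, 2 higher, 9 higher, 0 and 1 higher called in KO relative to WT, against 11.2% of all genes tested. For the 12 adherens junction genes, 4 had an unadjusted p under 0.05 and DESeq2 called 2. In male WT and in male KO cultures, edgeR called 0 genes of any of the 5 lists under HDM, as did DESeq2, with between 0 and 3 genes of a list at an unadjusted p under 0.05.

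Other cell types could contribute these transcripts, and in bulk RNA fewer cells of a type cannot be told apart from less RNA per cell. The 10 fibroblast markers summed to 30.2 and 590 CPM in the female WT naive and to 50.4 and 624 CPM in the female WT HDM libraries, so the sum differed far more within each group than between them. Of 9 fibroblast markers tested, 2 were called higher under HDM, Dcn and Lum, which were high in the second HDM library (45.9 and 28.0 CPM) and not in the first (2.25 and 1.04 CPM). None of the 10 was at the floor of 3 counts in every library. From 30.2 to 50.4 CPM of fibroblast markers, Cdh2 was 14.5 times, Twist1 9.28 times, Fn1 6.77 times, Zeb1 4.46 times and Vim 3.8 times as high under HDM. From 590 to 624 CPM of fibroblast markers, these ratios were 18.7, 8.59, 5.96, 3.76 and 3.59. The single markers behind the near-equal sums of the second libraries moved apart, since Col1a1 went from 249 to 47.1 CPM while Col3a1 went from 120 to 290 CPM, Dcn from 2.56 to 45.9 CPM, Lum from 0.877 to 28.0 CPM and Pdgfra from 2.2 to 11.8 CPM.

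Between the first female WT HDM library and the second naive one, 1 library against 1, the fibroblast sum was 0.0853 times as high under HDM. Most of that difference was collagen: Col1a1 was at 3.12 against 249 CPM, Col1a2 at 20.4 against 151 and Col3a1 at 17.1 against 120. Postn, Pdgfrb and Thy1 were also lower. Dcn was at 2.25 against 2.56 CPM, while Lum (1.04 against 0.877) and Pdgfra (3.58 against 2.2) were higher, so the single markers did not fall alike. In that pair Cdh2 was 10.2 times, Twist1 3.95 times, Fn1 3.48 times, Vim 1.28 times and Zeb1 1.23 times as high. The part of the fibroblast markers in these differences was not tested. Leaving out both second female WT libraries, as was decided after the data were seen, left 5 members called in the female WT response and 2 in the female HDM comparison of genotypes. In the WT HDM comparison of the sexes 5 were then called. Snai1, Twist1, Zeb1, Zeb2, Vim, Cdh2 and Fn1 were all higher in the second library than in the first in both female WT groups, as was the fibroblast sum.

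**Figure D5:**
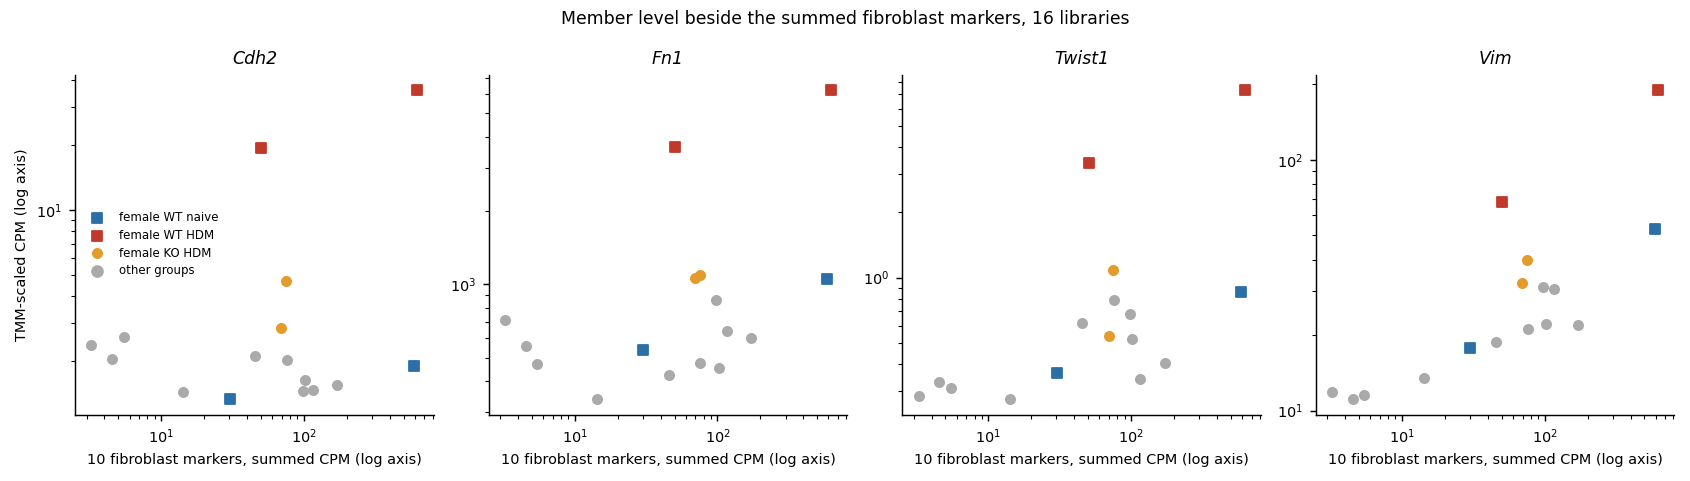
CPM of Cdh2, Fn1, Twist1 and Vim (vertical axes, log scale) against the summed CPM of 10 fibroblast markers (horizontal axis, log scale) in the 16 libraries. The female WT HDM libraries, at fibroblast sums of 50.4 and 624 CPM, lie above the female WT naive libraries at 30.2 and 590 CPM for all 4 genes.

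Markers of other cell types moved as well, and their part in the member changes was not tested. The 7 basal markers summed to 9632 and 10508 CPM in the female WT naive and to 4159 and 2141 CPM in the female WT HDM libraries, with 5 of 7 called lower. The 5 club cell markers went from 18331 and 14155 to 4692 and 3799 CPM and the 5 goblet cell markers from 168 and 140 to 3.83 and 4.03 CPM, with all 5 called lower in each list. The 7 ciliated cell markers summed to 93.2 and 122 against 87.8 and 94.1 CPM, with 3 called lower by edgeR and 5 called by DESeq2. Most of that sum was Foxj1 (69.5 and 89.4 against 79.1 and 86.6 CPM), and the median log2 change over the 7 markers was -1.96. The 6 smooth muscle markers, at 4.5 and 8.14 against 5.87 and 8.57 CPM, had none called by edgeR or DESeq2 and 1 at an unadjusted p under 0.05. Of the 6 chondrocyte markers, 2 were tested and both rose, and their sum of 64.2 CPM in the first female WT HDM library, against 8.38 in the second and at most 4.12 in the other 14, was nearly all Col2a1 (62.0 CPM). The 8 leukocyte markers went from 95.8 and 70.6 to 50.7 and 50.8 CPM with Cd3e at the floor in every library, and 3 were called lower. The 6 endothelial markers summed to 2.29 CPM at most with Emcn and Cldn5 at the floor throughout, and the 6 Schwann cell markers fell from 105 and 93.4 to 14.0 and 10.1 CPM through Ngfr, which is also a basal marker, with Sox10 and Cdh19 at the floor throughout. In female KO cultures the basal sum was 9862 and 11102 CPM naive and 12921 and 10324 CPM under HDM, and the club sum went from 17017 and 14372 to 8514 and 7737 CPM.

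Finally, genes with group profiles like those of the members were listed, by the root mean square distance between centred log2(CPM + 0.5) means of the 8 groups. This was done for the 5 members whose group means spanned at least 2 on that scale. Nearest to Cdh2 were Ccn2, a secreted target of Hippo and growth factor signalling, at a distance of 0.16, then Ntn1, which encodes netrin 1, at 0.18 and Cryab, a small heat shock protein, at 0.25. Nearest to Fn1 were Adgra1 (0.15), Plau (0.19), the urokinase gene, and Bmper (0.19), and nearest to Twist1 were Mmp24 (0.12), Flnc (0.13), which encodes filamin C, and Cntfr (0.13). Nearest to Vim were Dkk2 (0.13), Ccn4 (0.17) and Mcpt8 (0.19), and nearest to Zeb1 were Fez1 (0.07), Cox6b2 (0.13) and Cpxm1 (0.14). Each distance rests on 8 group means and mainly on the female WT HDM group, which stood apart for all 5 members.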

How the data were processed

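The authors deposited 1 table of raw counts per Ensembl gene, with a column for each of the 16 libraries. The submitters' processing notes name Trimmomatic 0.36, STAR 2.5.2b, featureCounts, Subread 1.5.2, DESeq2 and GRCm38; the annotation release and strand setting are not given in the sources used here. Identifiers were matched to GENCODE M21, and 259 of 49315 found no match (0.0106% of counts). The counts were filtered by group with filterByExpr, scaled by TMM and fitted with 8 group means in edgeR 4.0.16 (R 4.3.3), for 16 comparisons over 15993 genes, with two-sided tests. Tables and plots used Python 3.11.15, pandas 2.3.3 and matplotlib 3.10.9, and DESeq2 1.42.0 was an alternative. The fit was checked on simulated counts. Totals of 21860698 to 43442188 counts put the floor of 3 counts at 0.0691 to 0.137 CPM, which covers counting error only.

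The members and gene lists were chosen with earlier results of these data known. All members were named. Of each other list of the transition, up to 3 genes with the smallest p among those called in female WT cultures and a mean of at least 1 CPM were named. A gene that this rule names is not reported here.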

Additional observations from a re-analysis of the deposited data

Results flagged for a closer look

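The HDM response differed between groups, by the test of the difference itself, for 6 values. In WT cultures the log2 response of males minus that of females was -3.74 for Cdh2, -2.66 for Fn1, -2.79 for Twist1 and 0.52 for Esrp1. In female cultures the log2 response of libraries labelled KO minus that of WT was -2.7 for Cdh2 and -2.13 for Fn1. All 6 rest on the same 4 female WT libraries, and Lman1 was at 12.8 CPM in both female KO naive libraries and at 66.6 and 78.1 CPM in the female KO HDM libraries (log2 response 2.67 higher than in WT, edgeR adjusted p 0.0238). The cause of these differences was not tested.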

How the results depend on the processing

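Of 587 refits of the 47 called values, 512 kept direction and call, 75 kept the direction only and none reversed. Of 715 refits of the 58 values not called, 42 became called and 32 reversed. These counts cover the members in the 4 HDM responses and in every other comparison with a called member. They also cover the other genes named by rule in the female WT response. Values of the remaining comparisons are not in them. With only the compared libraries, 5 members were called in the female WT response (8 in the fit reported), 2 in the female KO response and 2 for the WT response between sexes. With no filter on low counts, 2 were called in the female KO response, 1 for male HDM KO against WT, 3 for WT naive sexes, 2 for KO naive sexes, 7 for the WT response and 2 for the KO response between sexes, and 8 for the female response between genotypes. DESeq2 called 1 member for the KO response between sexes. Without both second female WT libraries, 5, 2, 5 and 2 were called in the female WT response, female HDM KO against WT, WT HDM sexes and the WT response between sexes.

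Leaving out 1 library at a time gave 4 to 6 called members in the female WT response, 0 in the female KO response, 2 to 7 for female HDM KO against WT, 0 to 2 for KO HDM sexes, 2 to 6 for the WT response between sexes and 1 to 3 for the female response between genotypes. Whether equal replicate numbers pair the libraries is not given in the labels. The correlation of replicate deviations was positive for the 4 pairs of WT groups (0.359 for female and 0.61 for male HDM and naive, 0.207 for naive and 0.169 for HDM sexes) and ran from -0.29 to 0.514 over the other 8, so the numbers were not used as pairs. With the replicate block, 1 member was called for the KO response between sexes and 5 for the female response between genotypes, and the other member counts stayed within 1.5 times. With the numbers crossed, as added after the data were seen where that correlation was under -0.1, 1 member was called in the female KO response, 7 for female HDM KO against WT and 0 for KO naive sexes.

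The reversals counted above were all among values not called. With library size only, Esrp1 was -0.01 in male WT and Snai2 0.02 in male KO cultures, and with only the compared libraries that Snai2 value was 0.01.
Leaving out 1 library at a time also turned the sign of these values, given as log2 ranges: Snai1 from -0.26 to 2.76 in female WT cultures; in male WT cultures Snai1 from -5.05 to 0.45, Snai2 from -0.47 to 0.27, Twist1 from -0.37 to 0.74, Zeb1 from -1.45 to 0.69, Zeb2 from -0.75 to 0.29, Vim from -0.52 to 0.46, Fn1 from -0.44 to 0.31 and Esrp1 from -0.10 to 0.11; in male KO cultures Snai1 from -5.87 to 1.30, Snai2 from -0.05 to 0.03, Twist1 from -0.60 to 0.90, Zeb2 from -0.03 to 1.16, Vim from -0.34 to 0.58, Cdh2 from -0.57 to 0.10 and Fn1 from -0.45 to 0.04; and between the sexes in KO HDM cultures Snai1 from -4.84 to 1.61, Snai2 from -0.01 to 0.15, Zeb1 from -0.11 to 0.28 and Esrp1 from -0.03 to 0.02. The causes were not tested.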
